A study of Mus musculus with 12 samples.

Results

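The comparison described here set the 4 colon libraries of the DSS group against the 4 colon libraries of the control group, 8 of the 12 libraries in the series. DSS is dextran sulfate sodium, a sulfated polysaccharide that injures the lining of the large bowel when mice take it up and is used to model ulcerative colitis. For each library the deposited table lists transcripts with their FPKM (fragments per kilobase of transcript, scaled to the mapped fragments of the library), and the value of a gene was the sum over its listed transcripts, each counted once. Genes with at least 1 FPKM in 4 or more of the 8 libraries were kept. That left 12241 of 22377 listed genes, of which 11654 were protein coding, and 21282 of 74659 listed transcripts passed the same minimum. In all 8 libraries together, 10368 of the kept genes reached 1 FPKM. At the edge of the rule lay 417 genes that reached 1 FPKM in exactly 4 libraries, with a median of their mean levels of 1.13 FPKM, and 365 genes that reached it in exactly 3 and were left out, with a median of 0.939 FPKM.

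The labels give the organism (mouse), the tissue (colon) and the treatment, control or DSS. They do not state strain, age, sex, genotype, which stretch of the colon was taken, or the dose and length of the DSS treatment, and they do not say that each sample came from a different animal. All p-values therefore measure only the spread between these samples, which may be technical. The remaining 4 libraries of the series, from mice labelled FGF1, entered the statistical model, where the 3 groups share 1 estimate of the spread, and no comparison. Control 1 to 4 and DSS 1 to 4 below are the numbers the labels give the libraries.

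The colon wall holds a single-layered epithelium folded into crypts, in which stem cells at the base give rise to absorptive colonocytes, mucus-making goblet cells, hormone-making enteroendocrine cells and chemosensory tuft cells. Beneath it lies the lamina propria, a loose connective tissue with fibroblasts, blood and lymph vessels, macrophages, lymphocytes and antibody-making plasma cells, and beneath that the smooth muscle with the enteric nervous system. RNA of whole colon mixes all of these, so fewer cells of a type and less RNA per cell cannot be told apart in any of the values that follow.

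Control libraries listed between 52364 and 54313 transcripts above 0 FPKM and DSS libraries between 45795 and 51915, with no overlap (exact permutation test over the 8 libraries, two-sided, p = 0.0286, the smallest p that 4 against 4 can give). The fixed markers of epithelium were present throughout, with Epcam, a surface protein of epithelial cells, at 788, 661, 686 and 770.1 FPKM in control 1 to 4 and 741, 965, 880 and 773 in DSS 1 to 4. The mesothelium markers Msln, Upk3b and Wt1 did not pass the minimum, and Wt1 was listed at 0 in DSS 3 and DSS 4. The summed FPKM of 5 fibroblast markers lay between 158 and 232 in control and between 8.51 and 62.5 in DSS. For 5 smooth muscle markers the sums were 1624 to 5186 in control and 342 to 1225 in DSS, with control 3 highest and DSS 4 lowest. The pancreatic markers Cela3b and Prss2 were listed at 0 in all 8 libraries. The globin gene Hbb-bs, a marker of red blood cells, stood at 25.9, 14.5, 5.29 and 8.85 FPKM in control 1 to 4 and 192, 11.8, 141 and 11.3 in DSS 1 to 4. Its partner Hba-a1 was at 24.7, 13.2, 4.41 and 10.2 FPKM in control 1 to 4 and 137, 11.9, 91 and 8.78 in DSS 1 to 4. Both globins were therefore high in DSS 1 and DSS 3, while DSS 2 and DSS 4 lay within the range of the controls. Their part in the results below was not tested.

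Differences between DSS and control were tested with limma on log2(FPKM + 1), with p-values adjusted over all genes by the Benjamini-Hochberg method and a call at an adjusted p under 0.05. Of 12241 genes, 1513 were called (12.4%), 279 higher in DSS (2.28%) and 1234 lower (10.1%). In 2039 genes (16.7%) the 4 values of one group all lay beyond the 4 of the other, with DSS higher in 453 (3.7%) and lower in 1586 (13%). The minimum was met through the controls alone by 161 of the lower genes and through the DSS libraries alone by 11 of the higher ones, and such genes had to differ. Log2 fold changes are given as DSS minus control with their standard error (SE), and group levels as mean ± SD over 4 libraries. The balance between the directions depended on how libraries were scaled. Among called genes 18.4% were higher in DSS with the deposited FPKM, 34% (534 of 1570) after median-of-ratios scaling and 4.87% (117 of 2401) when every library was scaled to the same mean level of 23 general epithelial genes. Over all genes, the median log2 fold change was -0.07, 0.02 and -0.22 under these 3 scalings, and changes below are to be read against those medians. Counts of called list members below are to be read against 2.28% higher and 10.1% lower among all genes. With the deposited FPKM, 4977 of the 12241 genes had a positive log2 fold change. With the level of the smooth muscle genes as a covariate 31 genes were called (5 higher, 26 lower). That level did not overlap between the groups (5.34 to 6.92 in control and 3.58 to 5.08 in DSS). The fit can therefore hardly separate the covariate from the treatment, and its loss of calls does not show what part muscle had. Without DSS 3 and DSS 4 together, which leaves DSS 1 and DSS 2 as the only DSS libraries, 201 were called (40 higher, 161 lower).

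**Figure D1:**
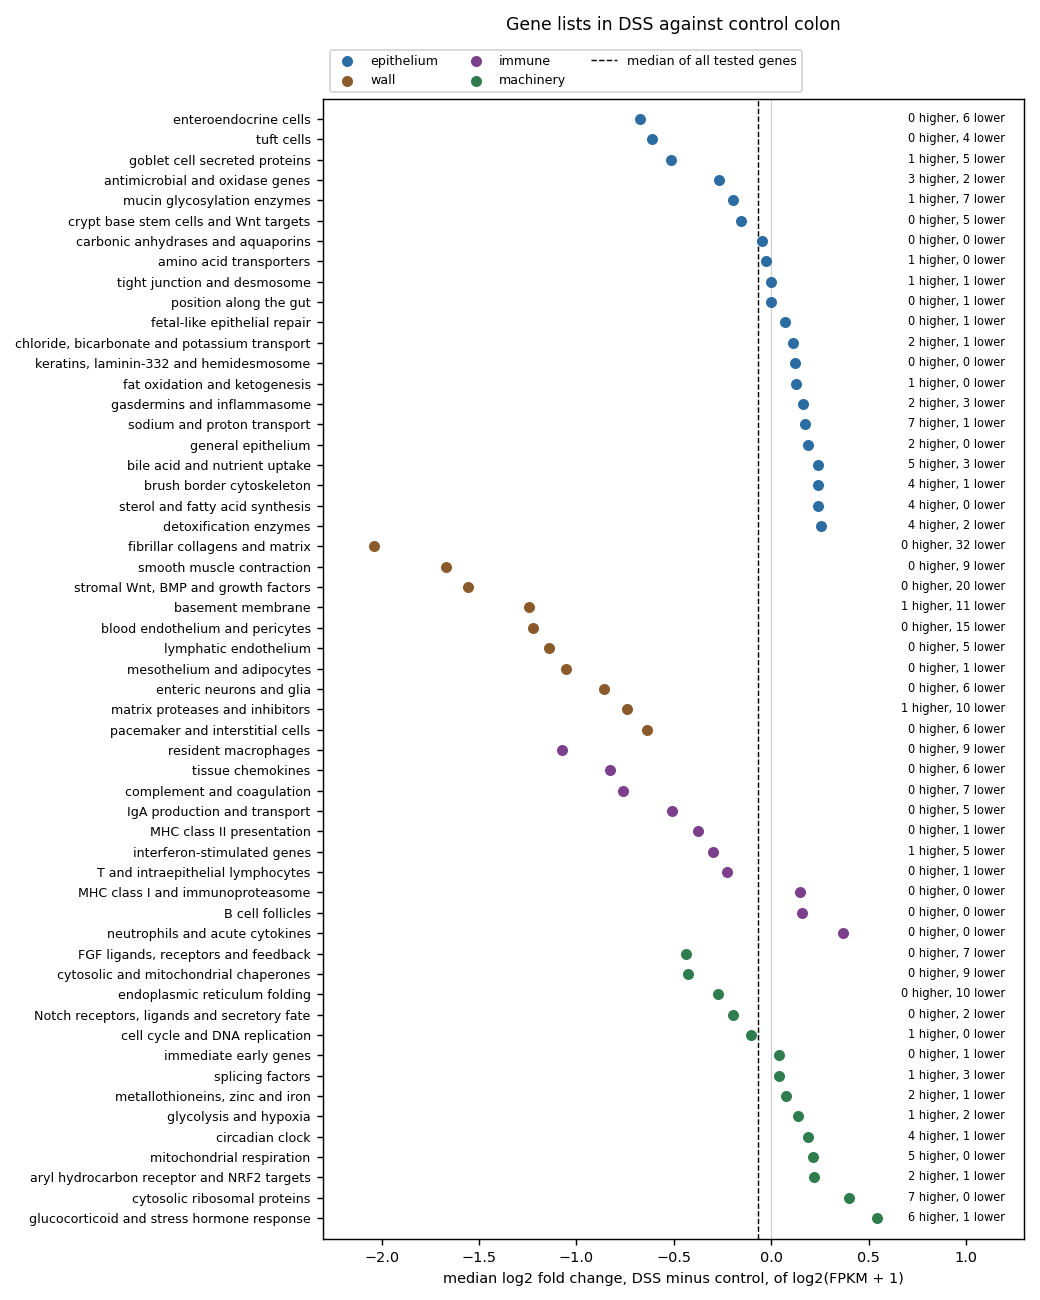
Median log2 fold change (DSS minus control, on log2(FPKM + 1)) of the tested members of 55 gene lists, 1 point per list, with lists grouped by compartment and the numbers of called members (higher, lower) at the right; the dashed line is the median of all 12241 genes. The collagen and matrix list lies furthest to the left at -2.04, and the hormone response list lies furthest to the right at 0.54.

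Connective tissue genes were lower in DSS almost without exception. Of 35 tested genes of fibrillar collagens and their matrix partners, 32 fell and none rose, against 10.1% lower among all genes, and the list median was -2.04 (-1.97 and -2.21 with median-of-ratios and epithelial scaling). Decorin (Dcn), a small proteoglycan that binds collagen fibrils, stood at 38.1, 55.5, 67.5 and 43.7 FPKM in control 1 to 4 and 22.2, 11.6, 4.35 and 2.35 in DSS 1 to 4 (log2 fold change -2.58 ± 0.55, adjusted p = 0.0117). The highest DSS value, in DSS 1, was below the lowest control value, and the levels in DSS 3 and DSS 4 were the lowest. Fibronectin (Fn1), a matrix glycoprotein, stood at 24.5, 13.8, 81.3 and 47.7 FPKM in control 1 to 4 and 10.3, 6.56, 5.62 and 0.934 in DSS 1 to 4 (log2 fold change -2.61 ± 0.63, adjusted p = 0.0213), with its highest level in control 3. Leaving out 1 of control 3, control 4, DSS 3 and DSS 4 ended the call (adjusted p up to 0.063). Without DSS 3 and DSS 4 together 15 members of the list were called lower (list median -1.48), and with the smooth muscle covariate 1 was (list median -1.24). In 32 members, against 13% of all genes, the 4 DSS values all lay below the 4 control values.

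Basement membranes, the thin sheets on which epithelium and vessels rest, moved in the same direction with 1 exception. Of 16 tested genes 11 fell, with a median of -1.24. The type IV collagen chain Col4a1 fell from 30.1 ± 8.47 FPKM in the controls to 6.85 ± 5.81 with DSS (log2 fold change -2.23 ± 0.48, adjusted p = 0.0126) and its partner Col4a2 by a similar amount (-2.17 ± 0.47, adjusted p = 0.0124). The laminin chain Lamb1 stood at 11.6, 12, 7.68 and 8.96 FPKM in control 1 to 4 and 3.87, 2.62, 1.22 and 1.53 in DSS 1 to 4 (log2 fold change -1.79 ± 0.26, adjusted p = 0.00324). Perlecan (Hspg2), a heparan sulfate proteoglycan, and nidogen (Nid1), a laminin linker, had log2 fold changes of -1.69 ± 0.32 and -1.83 ± 0.34 (adjusted p = 0.00716 and 0.00724). Agrin (Agrn), a heparan sulfate proteoglycan that epithelial cells also make, was the member called higher, at 12.1, 12.3, 15.3 and 10.9 FPKM in control 1 to 4 and 15.8, 16.4, 17 and 17.3 in DSS 1 to 4 (log2 fold change 0.38 ± 0.11, adjusted p = 0.0435). The 4 DSS values of Agrn all lay above the 4 control values, but with epithelial scaling it was not called, nor without any 1 of 6 of the 8 libraries (adjusted p up to 0.126), and its most abundant transcript alone gave -0.26 ± 0.29, adjusted p = 0.651.

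Signals that stromal cells send to the crypt were lower too. Wnt ligands and R-spondins keep stem cells dividing, bone morphogenetic proteins (BMPs) drive cells to differentiate as they leave the crypt base, and gremlins block BMPs there. Of 23 tested stromal Wnt, BMP and growth factor genes, 20 fell and none rose, with a median of -1.56. Pdgfra, the growth factor receptor that marks subepithelial fibroblasts, stood at 10.7, 7.65, 5.56 and 7.58 FPKM in control 1 to 4 and 2.99, 1.27, 0.742 and 0.742 in DSS 1 to 4 (log2 fold change -1.92 ± 0.32, adjusted p = 0.00439). All 4 DSS values were below the lowest control value. Bmp5 stood at 6.82, 4.64, 2.37 and 4.83 FPKM in control 1 to 4 and 1.54, 0.521, 0.658 and 0.528 in DSS 1 to 4 (log2 fold change -1.62 ± 0.30, adjusted p = 0.00696). Bmp4 stood at 7.76, 7.14, 3.18 and 3.18 FPKM in control 1 to 4 and 3.17, 1.98, 1.11 and 0.838 in DSS 1 to 4 (log2 fold change -1.17 ± 0.34, adjusted p = 0.0447). Bmp5 kept its call without any 1 library, whereas Bmp4, whose highest DSS value (DSS 1) was just under the lowest control values, lost it without any 1 of 7 of the 8 libraries (adjusted p up to 0.123) and kept it without DSS 1. The BMP antagonist Grem1 stood at 1.48, 3.01, 31.3 and 7.11 FPKM in control 1 to 4 and 2.35, 1.53, 0.35 and 0.13 in DSS 1 to 4 (log2 fold change -1.91 ± 0.80, adjusted p = 0.144), so that control 3 alone was far above the other 7 libraries and the gene was not called. Insulin-like growth factor binding proteins Igfbp3 and Igfbp6 fell, with log2 fold changes of -2.25 ± 0.40 and -2.05 ± 0.41 (adjusted p = 0.00599 and 0.00988), and Dkk3, a secreted protein of the Dickkopf family, with one of -1.81 ± 0.34 (adjusted p = 0.00703). None of the 20 calls remained without DSS 3 and DSS 4 together, where the list median was -0.96 and that of all genes -0.03.

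Among 22 tested matrix proteases and their inhibitors, 10 fell and 1 rose. Mmp2, a gelatinase of fibroblasts, fell from 11.8 ± 3.56 FPKM in the controls to 2.22 ± 2.13 with DSS (log2 fold change -2.18 ± 0.46, adjusted p = 0.0111). Plau, urokinase, fell from 6.87 ± 3.3 FPKM in the controls to 1.13 ± 0.64 with DSS (log2 fold change -1.83 ± 0.36, adjusted p = 0.00865). The tissue inhibitors of metalloproteinases Timp2 and Timp3 fell too, with log2 fold changes of -1.63 ± 0.30 and -1.88 ± 0.40 (adjusted p = 0.00722 and 0.012). Mmp7, matrilysin, a protease made by epithelial cells, stood at 0.808, 0.773, 0.22 and 0.973 FPKM in control 1 to 4 and 11.1, 1.85, 9.3 and 4.26 in DSS 1 to 4 (log2 fold change 1.98 ± 0.46, adjusted p = 0.0187). Mmp7 met the minimum through the DSS libraries alone, so its 4 DSS values had to exceed the controls. They were highest in DSS 1 and DSS 3, and the call was lost without DSS 3 (adjusted p = 0.061) or control 3 (0.055).

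Genes of vessels were lower too. Of 20 tested genes of blood endothelium and pericytes 15 fell (median -1.22), and of 8 lymphatic genes 5 fell (median -1.14), with none higher in either list. Endoglin (Eng), a co-receptor of endothelial cells for transforming growth factor beta, stood at 8.26, 7.8, 8.57 and 8.15 FPKM in control 1 to 4 and 3.44, 2.77, 0.764 and 0.919 in DSS 1 to 4 (log2 fold change -1.74 ± 0.29, adjusted p = 0.00448). The controls lay within a narrow range, and the DSS values fell in 2 pairs, with DSS 3 and DSS 4 below DSS 1 and DSS 2. Pecam1, an adhesion molecule between endothelial cells, showed the same order at 7.25, 8.51, 7.65 and 7.11 FPKM in control 1 to 4 and 5.28, 2.25, 0.844 and 0.745 in DSS 1 to 4 (log2 fold change -1.60 ± 0.35, adjusted p = 0.0129). In lymphatics, Stab1, a scavenger receptor that sinusoidal endothelium and macrophages also carry, fell from 6.49 ± 2.13 FPKM in the controls to 1.49 ± 0.737 with DSS (log2 fold change -1.58 ± 0.27, adjusted p = 0.00462). Podoplanin (Pdpn) fell too, by a log2 fold change of -1.22 ± 0.24 (adjusted p = 0.00919). Prox1, the transcription factor that defines lymphatic identity, was at 0.68, 1.1, 1.07 and 1.11 FPKM in control 1 to 4 and 1.05, 0.645, 0.368 and 0.237 in DSS 1 to 4 and was not called (adjusted p = 0.187).

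Of 29 enteric neuron and glia genes, 6 fell, with a median of -0.86, and of 12 pacemaker and interstitial cell genes 6 fell, with a median of -0.64. The neuropeptide gene Vip was at 15.6, 23.7, 36 and 22.2 FPKM in control 1 to 4 and 5.26, 5.8, 1.94 and 2.08 in DSS 1 to 4 (log2 fold change -2.46 ± 0.37, adjusted p = 0.00345) and did not overlap. Gja1, which encodes the gap junction protein connexin 43, was at 11.9, 11.8, 9.75 and 11 FPKM in control 1 to 4 and 6.77, 1.2, 2.88 and 3.11 in DSS 1 to 4 (log2 fold change -1.57 ± 0.29, adjusted p = 0.00698). Ano1, the chloride channel of pacemaker cells, stood at 6.51, 9.08, 22.8 and 15.3 FPKM in control 1 to 4 and 3.31, 3.74, 2.92 and 2.71 in DSS 1 to 4 (log2 fold change -1.66 ± 0.34, adjusted p = 0.0107). Kit, the receptor that marks pacemaker cells and mast cells, was at 11.2, 26.5, 28.5 and 26.5 FPKM in control 1 to 4 and 17.6, 10.9, 13.2 and 11.6 in DSS 1 to 4 and was not called (adjusted p = 0.121). Elavl4, a general marker of neurons, was not called either (adjusted p = 0.0716).

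Smooth muscle genes were lower on the whole, with a wide spread between libraries of a group. All 29 tested genes had a negative log2 fold change (median -1.67), whereas 4977 of all 12241 genes had a positive one. In 21 of the 29 the groups did not overlap, against 13% of all genes with DSS lower. Yet 9 were called, against 10.1% of all genes called lower. Myh11, smooth muscle myosin, stood at 178, 189.9, 555 and 377 FPKM in control 1 to 4 and 151, 110.4, 62.6 and 28.8 in DSS 1 to 4 (log2 fold change -1.95 ± 0.62, adjusted p = 0.0592). Actg2, enteric actin, stood at 554, 513, 1539 and 1494 FPKM in control 1 to 4 and 367, 333, 271 and 118 in DSS 1 to 4 (log2 fold change -1.84 ± 0.59, adjusted p = 0.0619). For both, control 3 and control 4 were above control 1 and control 2, and DSS 3 and DSS 4 were below DSS 1 and DSS 2. Caldesmon (Cald1), which regulates contraction, showed the largest change among the called members, at 48.7, 64.7, 228 and 156 FPKM in control 1 to 4 and 41.9, 29.1, 15.4 and 6.29 in DSS 1 to 4 (log2 fold change -2.40 ± 0.66, adjusted p = 0.0361). Synaptopodin 2 (Synpo2) fell from 38.9 ± 21 FPKM in the controls to 8.86 ± 4.79 with DSS (adjusted p = 0.0367). Both calls were lost without any 1 of control 3, control 4, DSS 3 and DSS 4 (adjusted p up to 0.102). No smooth muscle gene was called without DSS 3 and DSS 4 together, where the list median was -1.09. The mean log2 level of the list was 5.38, 5.34, 6.92 and 6.41 in control 1 to 4 and 5.08, 4.91, 4.26 and 3.58 in DSS 1 to 4.

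**Figure D2:**
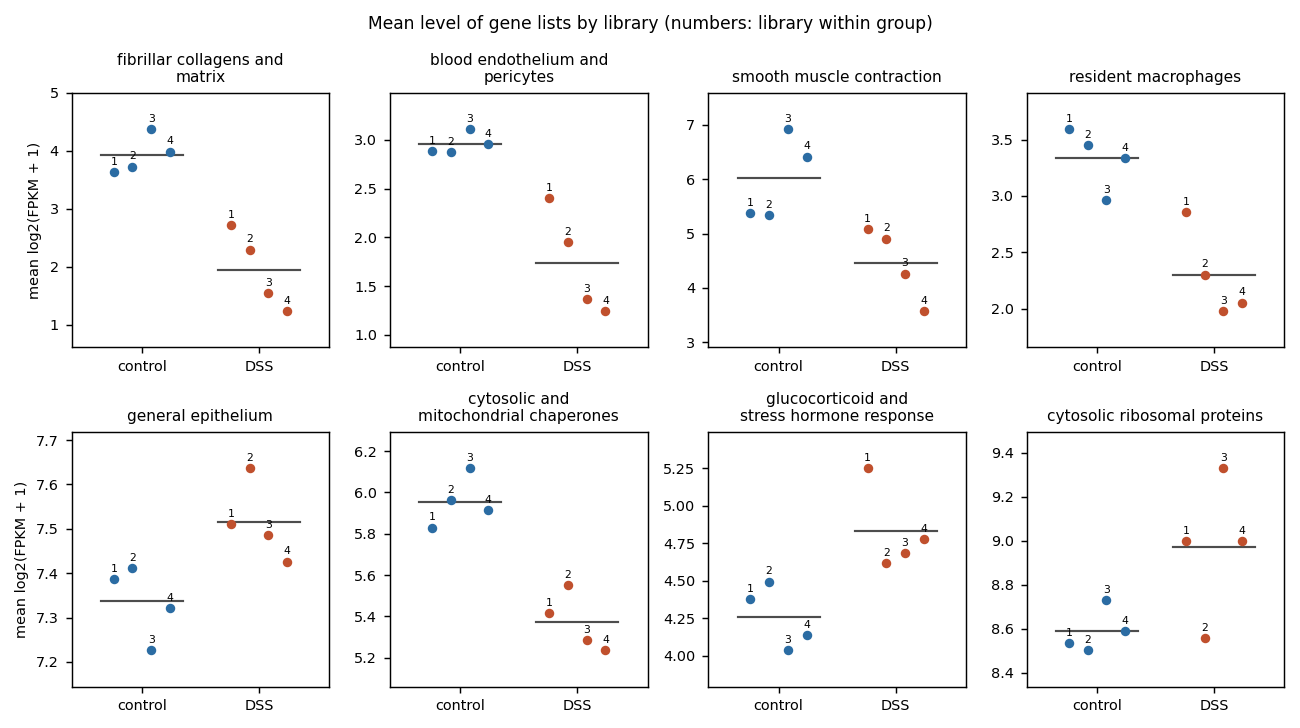
Mean log2(FPKM + 1) of the tested members of 8 gene lists in each of the 8 libraries, 1 panel per list and 1 point per library, with control and DSS means as horizontal bars. Matrix, vessel and smooth muscle panels fall from control to DSS with DSS 3 and DSS 4 lowest, and the smooth muscle panel has control 3 and control 4 highest. The general epithelium panel runs between 7.23 and 7.64 in all 8 libraries, with every DSS point above every control point.

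Levels of genes that mark position along the bowel also varied between libraries of the same group. Homeobox genes of the posterior groups are expressed towards the anus. Hoxb13 was listed at 0, 0, 15 and 0.817 FPKM in control 1 to 4 and 0.0271, 0.0203, 0 and 0 in DSS 1 to 4. Hoxa13 was at 0.6, 0.788, 15.8 and 8.85 FPKM in control 1 to 4 and 1.09, 0.639, 0.29 and 0.272 in DSS 1 to 4. Neither passed the expression minimum, and both were highest in control 3, with Hoxa13 also high in control 4. Hoxa9 stood at 1.06, 1.52, 18.2 and 9.02 FPKM in control 1 to 4 and 2.9, 1.03, 2.73 and 0.31 in DSS 1 to 4 (adjusted p = 0.401), with control 3 and control 4 highest. Insl5, a hormone of enteroendocrine cells of the distal colon and rectum, stood at 2.6, 1.63, 24.9 and 7.81 FPKM in control 1 to 4 and 3.48, 0.917, 0.453 and 1.26 in DSS 1 to 4 (adjusted p = 0.171), in the same order. Of 20 tested position genes, 1 was called: Hoxd11 fell, at 2.82, 3.27, 1.96 and 2.34 FPKM in control 1 to 4 and 1.06, 1.3, 0.524 and 0.305 in DSS 1 to 4 (log2 fold change -1.02 ± 0.24, adjusted p = 0.0182). That call was lost without DSS 3 or DSS 4 (highest adjusted p 0.057). Whether the libraries came from different stretches of the colon cannot be told from the labels, and the part of position in the results was not tested.

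Plasma cell products showed the largest decreases of all. Of the 12 called genes with the most negative log2 fold changes, among genes with a group mean of at least 5 FPKM and no overlap, 9 were immunoglobulin variable segments, and the other 3 were Igha, Jchain and Gsdmc4. Iglv1, a lambda light chain segment, stood at 364, 203, 33.5 and 59.1 FPKM in control 1 to 4 and 0.856, 1.5, 3.36 and 0.39 in DSS 1 to 4 (log2 fold change -5.60 ± 0.67, adjusted p = 0.0022). Igkv1-110, a kappa segment, stood at 37.6, 40.5, 73.3 and 32.1 FPKM in control 1 to 4 and 0.667, 2.25, 0.915 and 0.914 in DSS 1 to 4 (log2 fold change -4.40 ± 0.37, adjusted p = 0.000252). That the groups do not overlap in either was set by the rule that picked them. Summed over all 184 listed variable segments, a class taken up after the values were seen, the level was 2703, 1110, 519 and 834 FPKM in control 1 to 4 and 24.5, 26.3, 16.8 and 20.2 in DSS 1 to 4. Of the segments 49 passed the minimum, 35 of them through the controls alone, so that their count of calls (43 lower, 6 not called, against 10.1% lower among all genes) is partly set by the minimum. Variable segments resemble each other closely, so fragments may be assigned to the wrong one, which touches the values of single segments more than their sum. Igha, the constant region of immunoglobulin A, stood at 2016, 684, 694 and 804 FPKM in control 1 to 4 and 30.7, 92.2, 35.3 and 81.6 in DSS 1 to 4 (log2 fold change -4.10 ± 0.51, adjusted p = 0.00234). Ighm, the constant region of immunoglobulin M, fell from 7.31 ± 1.38 FPKM in the controls to 3.45 ± 1.92 with DSS (log2 fold change -1.01 ± 0.30, adjusted p = 0.0457), and lost its call without any 1 of 6 of the 8 libraries (adjusted p up to 0.099). Pigr, the epithelial receptor that carries immunoglobulin A into the lumen, stood at 821, 611, 634 and 608 FPKM in control 1 to 4 and 709, 444, 583 and 551 in DSS 1 to 4 (adjusted p = 0.415), so the groups overlapped. Of 11 tested genes of the list on immunoglobulin A production and transport 5 fell, and with the smooth muscle covariate Igha was still called. Of 6 tested B cell follicle genes none was called (0 at an unadjusted p under 0.05), with Cd79a, a part of the B cell receptor, at 1.58, 1.03, 0.585 and 0.507 FPKM in control 1 to 4 and 3.19, 0.405, 2.42 and 0.11 in DSS 1 to 4 and highest in DSS 1 and DSS 3.

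Macrophage genes were lower as well. Of 17 tested genes of resident macrophages 9 fell and none rose, with a median of -1.08. C1qc, a chain of the complement protein C1q that tissue macrophages make, stood at 20, 16.4, 10.8 and 12.7 FPKM in control 1 to 4 and 4.71, 2.37, 2.32 and 2.06 in DSS 1 to 4 (log2 fold change -2.06 ± 0.29, adjusted p = 0.00303) and was called under every alternative run. Pf4, a chemokine of macrophages and platelets, stood at 7.03, 7.42, 4.54 and 5.64 FPKM in control 1 to 4 and 3.05, 1.28, 0.0249 and 0.42 in DSS 1 to 4 (log2 fold change -1.88 ± 0.42, adjusted p = 0.0147), with DSS 3 and DSS 4 lowest. Lyz2, the lysozyme of macrophages and granulocytes, stood at 57.9, 62.6, 38.1 and 43.5 FPKM in control 1 to 4 and 20.9, 15.1, 15.8 and 7.96 in DSS 1 to 4 (log2 fold change -1.74 ± 0.37, adjusted p = 0.0118). None of the 3 genes overlapped between the groups. Adgre1, which encodes the macrophage surface protein F4/80, was at 2.03, 1.88, 0.984 and 1.51 FPKM in control 1 to 4 and 1.54, 0.504, 0 and 0.868 in DSS 1 to 4 and was not called (adjusted p = 0.14).

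Chemokines of the tissue itself fell in part. Of 15 tested, 6 fell and none rose. Ccl11, eotaxin, which draws eosinophils, stood at 9.46, 8.56, 5.46 and 3.87 FPKM in control 1 to 4 and 1.11, 0.441, 0.181 and 0.153 in DSS 1 to 4 (log2 fold change -2.39 ± 0.29, adjusted p = 0.00234). Ccl8, a monocyte attractant, fell from 7.47 ± 1.78 FPKM in the controls to 0.92 ± 0.954 with DSS (log2 fold change -2.23 ± 0.41, adjusted p = 0.00702). Cxcl14 fell from 19 ± 7.29 FPKM in the controls to 2.79 ± 2.45 with DSS (log2 fold change -2.51 ± 0.41, adjusted p = 0.00423). Ackr3, a scavenging receptor for Cxcl12, fell from 3.2 ± 0.384 FPKM in the controls to 0.759 ± 0.33 with DSS (log2 fold change -1.27 ± 0.15, adjusted p = 0.00204). It was called under every alternative that tested it, and was too low to be tested with the minimum of 5 FPKM. The epithelial chemokine gene Ccl28 was not called (adjusted p = 0.477). Of 18 complement and coagulation genes 7 fell, among them C1s1 (-1.97 ± 0.41, adjusted p = 0.011), the inhibitor Serping1 (-2.12 ± 0.35, adjusted p = 0.00448) and the thrombin receptor F2r (-1.96 ± 0.28, adjusted p = 0.00303).

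Genes of neutrophils and of acute inflammation were mostly too low to test: of 30 listed genes 4 passed the minimum and none was called by limma (1 at an unadjusted p under 0.05). Their values are given because the libraries differed. The calprotectin subunit S100a9 was listed at 0, 0.239, 0 and 0 FPKM in control 1 to 4 and 24.5, 0, 8.54 and 0.487 in DSS 1 to 4. S100a8 was at 0.0897, 0.151, 0 and 0 FPKM in control 1 to 4 and 19.8, 0.365, 10.1 and 0.511 in DSS 1 to 4. Ly6g, a surface protein of neutrophils, stood at 0.0648, 0, 4.16 and 2.6 FPKM in control 1 to 4 and 86.6, 3.63, 27.7 and 1.23 in DSS 1 to 4 (log2 fold change 2.59 ± 0.99, adjusted p = 0.109). DSS 1 was highest and DSS 3 next for all 3 genes, and for Ly6g DSS 2 and DSS 4 lay within the control range. Il1b was at 0.947, 0.92, 0.178 and 0.643 FPKM in control 1 to 4 and 3.19, 0.14, 1.87 and 0.113 in DSS 1 to 4. Lcn2, lipocalin 2, was at 1.37, 1.13, 0.854 and 0.632 FPKM in control 1 to 4 and 17.7, 1.03, 0.217 and 0.375 in DSS 1 to 4. The myeloperoxidase gene Mpo was listed at 0 in 7 of the 8 libraries. Cxcl1 and Il6 did not exceed 0.166 FPKM in any library.

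Antigen presentation and interferon genes were mostly uncalled. Counts of calls here are to be read against 10.1% lower and 2.28% higher among all genes. Of 9 tested genes of class II presentation 1 fell, H2-Aa (66.3, 53.2, 35.1 and 48.1 FPKM in control 1 to 4 and 18.2, 20.7, 21.5 and 8.46 in DSS 1 to 4; log2 fold change -1.55 ± 0.41, adjusted p = 0.0311), whose call was lost without any 1 of 5 of the 8 libraries (adjusted p up to 0.084). Cd74, the invariant chain of class II molecules, did not overlap between the groups but was not called (log2 fold change -1.50 ± 0.46, adjusted p = 0.052). None of the 9 class II genes had a positive log2 fold change (list median -0.38). In 4 of them all DSS values lay below the controls, against 13% of all genes. None of 19 class I and immunoproteasome genes was called (4 at an unadjusted p under 0.05), and their median of 0.15 became -0.03 with epithelial scaling. Of 36 interferon-stimulated genes 5 fell and 1 rose, near those shares of all genes (10.1% and 2.28%). Yet 4 of the 36 had a positive log2 fold change (list median -0.30), against 4977 of all 12241 genes. Ifi27l2a stood at 26.7, 53.2, 18.3 and 33.8 FPKM in control 1 to 4 and 7.34, 11.6, 5.12 and 4.81 in DSS 1 to 4 (log2 fold change -2.02 ± 0.31, adjusted p = 0.00345). Bst2, tetherin, stood at 24.6, 22.1, 20.1 and 22 FPKM in control 1 to 4 and 11.4, 14.6, 10.2 and 15.8 in DSS 1 to 4 (log2 fold change -0.74 ± 0.14, adjusted p = 0.00651), both without overlap. Ido1, which breaks down tryptophan, was the member that rose, at 1.06, 1.61, 0.0973 and 1.78 FPKM in control 1 to 4 and 6.02, 3.76, 4.15 and 2.37 in DSS 1 to 4 (log2 fold change 1.28 ± 0.31, adjusted p = 0.0202). The Ido1 call was lost without DSS 3 (adjusted p = 0.057). Irf7, a central transcription factor of the interferon response, had an adjusted p of 0.605. Of 12 T cell and intraepithelial lymphocyte genes 1 fell, the kinase gene Lck (log2 fold change -0.97 ± 0.27, adjusted p = 0.0351), which overlapped between the groups and lost its call without any 1 of 6 libraries (adjusted p up to 0.093).

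Epithelial genes moved in both directions. Of 23 general epithelial genes 2 rose and none fell, with a median of 0.19. Lgals4, a galectin of the brush border, stood at 1527, 1409, 1295 and 1281 FPKM in control 1 to 4 and 1769, 1909, 2156 and 2194 in DSS 1 to 4 (log2 fold change 0.54 ± 0.15, adjusted p = 0.0389). Ovol1, an epithelial transcription factor, stood at 8.1, 10.3, 6.72 and 8.5 FPKM in control 1 to 4 and 11.5, 12.7, 10.9 and 13.2 in DSS 1 to 4 (log2 fold change 0.49 ± 0.13, adjusted p = 0.0282). The groups did not overlap for either gene. Both calls ended with epithelial scaling, by construction near the level of this list, and without several single libraries (adjusted p up to 0.11 for Lgals4 and 0.077 for Ovol1). No call was made by limma among 11 carbonic anhydrases and aquaporins (3 at an unadjusted p under 0.05, median -0.05), with the water channel gene Aqp8 at 59.5, 155, 132 and 116 FPKM in control 1 to 4 and 24.1, 138, 5.02 and 20.9 in DSS 1 to 4. The carbonic anhydrase gene Car4 was at 443, 388, 312 and 469 FPKM in control 1 to 4 and 275, 321, 274 and 337 in DSS 1 to 4. None was made among 16 keratin, laminin-332 and hemidesmosome genes (2 at an unadjusted p under 0.05, median 0.12, -0.05 with epithelial scaling), with Krt20, the keratin of surface colonocytes, at 479, 547, 406 and 455 FPKM in control 1 to 4 and 312, 935, 354 and 400.2 in DSS 1 to 4.

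Goblet cell genes changed in both directions, most of the called ones downward. These cells store gel-forming mucin and release it with lectins, trefoil peptides and other small proteins. Of 17 tested secreted-protein genes 5 fell and 1 rose (median -0.51). Muc2, the mucin of the mucus gel, stood at 3024, 5609, 3341 and 4701 FPKM in control 1 to 4 and 2055, 1334, 2136 and 2426 in DSS 1 to 4 (log2 fold change -1.06 ± 0.25, adjusted p = 0.0187), without overlap, and the call ended without control 4 (adjusted p = 0.058). Clps, colipase, a cofactor of pancreatic lipase, fell from 25.2 ± 7.85 FPKM in the controls to 8.2 ± 2.99 with DSS (log2 fold change -1.54 ± 0.31, adjusted p = 0.00953). Ang4, a bactericidal ribonuclease, stood at 240.1, 27.6, 194 and 105 FPKM in control 1 to 4 and 16.7, 31.9, 10.7 and 6.83 in DSS 1 to 4 (log2 fold change -2.85 ± 0.65, adjusted p = 0.0171), with control 2 below DSS 2, and its call ended without control 3, DSS 3 or DSS 4 (highest adjusted p 0.054). Zg16, a lectin that aggregates bacteria, was the member that rose, at 193, 376, 40.1 and 101 FPKM in control 1 to 4 and 758, 519, 603 and 701 in DSS 1 to 4 (log2 fold change 2.27 ± 0.61, adjusted p = 0.0323). Zg16 lost its call without any 1 of 5 libraries (adjusted p up to 0.086). The trefoil peptide gene Tff3 stood at 518, 807, 182 and 330.3 FPKM in control 1 to 4 and 916, 947, 1026 and 1112 in DSS 1 to 4, without overlap and higher in DSS, but was not called (log2 fold change 1.32 ± 0.43, adjusted p = 0.0653). The mucus proteins Fcgbp and Clca1 were not called either, at 135, 210.5, 305 and 128 FPKM in control 1 to 4 and 213, 248, 184 and 230 in DSS 1 to 4 for Fcgbp and an adjusted p of 0.201 for Clca1. Of 25 tested enzymes that build mucin sugar chains 7 fell and 1 rose. B3gnt7, which extends chains with N-acetylglucosamine, stood at 12.2, 16.2, 19.6 and 13.9 FPKM in control 1 to 4 and 2.67, 6, 5.59 and 6.36 in DSS 1 to 4 (log2 fold change -1.45 ± 0.28, adjusted p = 0.00768). The sialyltransferase St6galnac6 stood at 189, 181, 241 and 238 FPKM in control 1 to 4 and 122, 92.2, 92 and 69 in DSS 1 to 4 (log2 fold change -1.19 ± 0.20, adjusted p = 0.00463). Gcnt1, which starts branches of the chains, was the member that rose, from 3.29 ± 0.674 FPKM in the controls to 6.12 ± 0.87 with DSS (log2 fold change 0.73 ± 0.17, adjusted p = 0.0157). All 3 were without overlap. C1galt1, which makes the core structure common to most mucin chains, was not called (adjusted p = 0.366).

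Part of the machinery that folds secreted proteins was lower. The endoplasmic reticulum holds chaperones and disulfide isomerases that fold proteins on their way out of the cell, and goblet and plasma cells both depend on it heavily. Of 42 tested genes 10 fell and none rose, with a median of -0.27 (-0.18 and -0.45 under the other scalings). Creb3l1, a membrane-bound transcription factor of secretory cells, fell from 91.2 ± 10.6 FPKM in the controls to 49.7 ± 6.42 with DSS (log2 fold change -0.87 ± 0.13, adjusted p = 0.00345). Hyou1, a chaperone of the lumen, stood at 25.3, 19, 23.3 and 22.6 FPKM in control 1 to 4 and 13, 12.9, 11.2 and 15.1 in DSS 1 to 4 (log2 fold change -0.74 ± 0.13, adjusted p = 0.00607). The disulfide isomerase Pdia4 stood at 62.2, 55.9, 56.3 and 56.3 FPKM in control 1 to 4 and 36.4, 43.4, 36.5 and 40.5 in DSS 1 to 4 (log2 fold change -0.55 ± 0.11, adjusted p = 0.00794). The 4 DSS values lay below the 4 controls for both. Xbp1, the transcription factor of the unfolded protein response, fell from 67.4 ± 5.92 FPKM in the controls to 47.2 ± 5.33 with DSS (log2 fold change -0.51 ± 0.10, adjusted p = 0.00825). Kdelr3, which returns escaped chaperones, fell from 17.9 ± 2.17 FPKM in the controls to 9.22 ± 2.14 with DSS (log2 fold change -0.90 ± 0.18, adjusted p = 0.0086). Hspa5, the central chaperone of the compartment, stood at 228, 100.1, 104 and 114 FPKM in control 1 to 4 and 105, 72.3, 46.2 and 66.4 in DSS 1 to 4 and was not called (adjusted p = 0.141), with control 1 high and DSS 1 within the control range. Since plasma cell products fell together with these genes, the share of plasma cells among their sources cannot be told apart from that of epithelium.

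The endoplasmic reticulum stress element, CCAAT and CCACG set 9 bases apart on either strand, is the site that ATF6 binds in promoters of this class. It occurred in the 250 bases before the transcript start in 0.13% of 27025 genes of the RefSeq promoter table (GRCm38.p6), and in 8 of 31 tested list members found there. Of the 8 called members found, 2 held it, Pdia6 (log2 fold change -0.61 ± 0.14, adjusted p = 0.0148) and Calr (log2 fold change -0.52 ± 0.14, adjusted p = 0.0364). The call of Pdia6 was lost without DSS 3 (adjusted p = 0.051) and that of Calr without any 1 of 7 libraries (adjusted p up to 0.104). Their elements are shown in capitals, as the 2 called genes in which the letters of the element occur, at chr12:17266474-17266529 (plus strand) and chr8:84847056-84847111 (minus strand, element in reverse complement).
Pdia6: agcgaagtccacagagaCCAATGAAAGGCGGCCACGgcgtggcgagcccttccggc
Calr: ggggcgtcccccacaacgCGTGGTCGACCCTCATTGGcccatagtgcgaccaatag

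Among the 12 called genes with the largest increases, by the same rule as above, were the transporters Slc9a3 and Slc51a, the anion channel Best2 and a noncoding RNA gene, 2010001M07Rik. The antisense gene 2010001M07Rik stood at 5.42, 4.82, 3.22 and 6.34 FPKM in control 1 to 4 and 28.5, 12.9, 26.2 and 22.2 in DSS 1 to 4 (log2 fold change 1.95 ± 0.35, adjusted p = 0.00593). Reads of its partner gene cannot be told apart from its own without strand.

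Absorptive functions included several of the clearest increases. Colonocytes take up sodium through the exchanger Slc9a3 and, under aldosterone, through the epithelial sodium channel, while Hsd11b2 protects the aldosterone receptor by inactivating cortisol-like hormones. Of 16 tested sodium and proton transport genes 7 rose and 1 fell, against 2.28% and 10.1% of all genes, although the list median was 0.17 and turned to 0.00 with epithelial scaling. Slc9a3 stood at 36.1, 24, 27.2 and 32.3 FPKM in control 1 to 4 and 151, 100.4, 112 and 203 in DSS 1 to 4 (log2 fold change 2.17 ± 0.21, adjusted p = 0.00048) and was called under every alternative run. Hsd11b2 stood at 54.4, 79.3, 46.6 and 57.9 FPKM in control 1 to 4 and 118, 192, 149.8 and 183 in DSS 1 to 4 (log2 fold change 1.42 ± 0.26, adjusted p = 0.00664). Neither overlapped. The channel subunit Scnn1b rose from 2.66 ± 1.17 FPKM in the controls to 6.2 ± 1.8 with DSS (log2 fold change 1.00 ± 0.29, adjusted p = 0.0406). The kinase gene Sgk1, which activates the channel, rose from 97.7 ± 44.3 FPKM in the controls to 203 ± 69.8 with DSS (log2 fold change 1.09 ± 0.32, adjusted p = 0.0447) with overlap between the groups. Each of these calls was lost without any 1 of 5 libraries (adjusted p up to 0.11 for Scnn1b and 0.12 for Sgk1). The main Sgk1 transcript alone gave -0.85 ± 1.70, adjusted p = 0.82. Scnn1a, which encodes the alpha subunit, was at 14.5, 17.4, 24.5 and 22.5 FPKM in control 1 to 4 and 11.9, 21.7, 15.4 and 13.7 in DSS 1 to 4 and was not called (adjusted p = 0.492). Slc9a3r2, a scaffold that tethers the exchanger, was the member that fell, at 12.8, 12.1, 13.1 and 14.4 FPKM in control 1 to 4 and 5.86, 4.09, 4.91 and 4.23 in DSS 1 to 4 (log2 fold change -1.30 ± 0.14, adjusted p = 0.0011), with no overlap, and kept its call without any 1 library.

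Of 20 genes of chloride, bicarbonate and potassium transport 2 rose and 1 fell. Best2, a bicarbonate-permeable anion channel of goblet cells, stood at 0.343, 2.17, 0.181 and 0.651 FPKM in control 1 to 4 and 4.63, 11.4, 6.33 and 9.94 in DSS 1 to 4 (log2 fold change 2.35 ± 0.48, adjusted p = 0.0102). Guca2b, the peptide uroguanylin that raises salt and water secretion, stood at 32.2, 29.6, 22.5 and 31.7 FPKM in control 1 to 4 and 50.7, 65.7, 77.4 and 118 in DSS 1 to 4 (log2 fold change 1.34 ± 0.23, adjusted p = 0.00462). Ano1, described with the pacemaker genes, was the member that fell. Slc26a3, the chloride-bicarbonate exchanger of colonocytes, stood at 42, 70.2, 96.5 and 82.2 FPKM in control 1 to 4 and 43, 226, 41.8 and 66 in DSS 1 to 4 (log2 fold change 0.05 ± 0.53, adjusted p = 0.967), with DSS 2 alone high. Cftr, the secretory chloride channel, had an adjusted p of 0.229.

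A group of 4 linked genes of bile acid handling rose. Bile acids enter epithelial cells through Slc10a2, are sensed by the nuclear receptor Nr1h4 (FXR) and leave across the basal membrane through the dimer of Slc51a and Slc51b. Slc51b stood at 52.9, 33.4, 25.8 and 46.4 FPKM in control 1 to 4 and 73.1, 135, 103 and 94.6 in DSS 1 to 4 (log2 fold change 1.35 ± 0.26, adjusted p = 0.00855). Slc51a was at 33.9, 30, 10.6 and 23 FPKM in control 1 to 4 and 75.5, 80.1, 83.3 and 147 in DSS 1 to 4 (log2 fold change 2.00 ± 0.49, adjusted p = 0.0224). Slc10a2 stood at 43, 37.4, 12.7 and 32 FPKM in control 1 to 4 and 76.2, 115, 62.9 and 109 in DSS 1 to 4 (log2 fold change 1.59 ± 0.47, adjusted p = 0.0467). Nr1h4 stood at 75.6, 55.9, 28.7 and 52.3 FPKM in control 1 to 4 and 115, 83.8, 115 and 152 in DSS 1 to 4 (log2 fold change 1.16 ± 0.33, adjusted p = 0.0394). The 4 DSS values were above the 4 controls for each of the 4 genes, and control 3 was the lowest control for each. Slc51b kept its call without any 1 library, while Slc51a, Nr1h4 and Slc10a2 lost theirs without several (adjusted p up to 0.065, 0.105 and 0.121). Fabp6, the cytosolic bile acid binder and a target of FXR, ranged from 3.52 to 8.48 FPKM in control and was 3.88, 22.7, 12.7 and 58.7 in DSS 1 to 4, with an adjusted p of 0.111. In the whole list of 18 bile acid and nutrient uptake genes 5 rose and 3 fell. The fatty acid receptor Cd36 fell (log2 fold change -1.70 ± 0.47, adjusted p = 0.0366), overlapped between the groups and lost its call without any 1 of 6 libraries (adjusted p up to 0.110). Of 17 amino acid transporters 1 was called, Slc7a9, which rose (log2 fold change 1.25 ± 0.37, adjusted p = 0.0461) and lost its call without any 1 of 7 libraries (adjusted p up to 0.123).

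Some genes of the brush border and of enzymes inside the colonocyte changed as well. Of 22 brush border cytoskeleton genes 4 rose and 1 fell (median 0.24, 0.06 with epithelial scaling). Myo1a, the motor that ties the membrane to the microvillus core, stood at 81.3, 86.3, 88.1 and 93.5 FPKM in control 1 to 4 and 178, 168, 173 and 135 in DSS 1 to 4 (log2 fold change 0.89 ± 0.14, adjusted p = 0.00381). The scaffold gene Ush1c stood at 91.2, 84.5, 76.5 and 86.1 FPKM in control 1 to 4 and 110, 129, 121 and 113 in DSS 1 to 4 (log2 fold change 0.48 ± 0.10, adjusted p = 0.0107), both without overlap. Villin (Vil1) was not called (adjusted p = 0.648). Fscn1, fascin, a bundler of filopodia that is also present in stromal and dendritic cells, was the member that fell, at 1.93, 1.99, 1.92 and 2 FPKM in control 1 to 4 and 1.24, 0.375, 0.418 and 0.236 in DSS 1 to 4 (log2 fold change -0.96 ± 0.20, adjusted p = 0.0109). Of 43 detoxification genes 4 rose and 2 fell. The cytochrome P450 gene Cyp2d26 stood at 21.9, 23.9, 14 and 23.8 FPKM in control 1 to 4 and 137, 53.5, 75.4 and 68 in DSS 1 to 4 (log2 fold change 1.89 ± 0.38, adjusted p = 0.00947). Its relative Cyp3a13 stood at 43.8, 62.5, 26.8 and 43.5 FPKM in control 1 to 4 and 130, 117, 120.5 and 109.5 in DSS 1 to 4 (log2 fold change 1.47 ± 0.25, adjusted p = 0.00463), and neither overlapped. Ephx1, epoxide hydrolase, fell from 16.1 ± 2.27 FPKM in the controls to 6.95 ± 1.4 with DSS (log2 fold change -1.11 ± 0.23, adjusted p = 0.0104). Of 29 sterol and fatty acid synthesis genes 4 rose, among them Cyp51 (log2 fold change 0.64 ± 0.13, adjusted p = 0.00953), which acts in late cholesterol synthesis and was not called with epithelial scaling. Of 31 fat oxidation genes 1 rose, Slc25a20, the mitochondrial carnitine carrier (107, 108, 59 and 103 FPKM in control 1 to 4 and 182, 165, 152 and 164 in DSS 1 to 4; log2 fold change 0.84 ± 0.21, adjusted p = 0.0224), whose adjusted p was 0.053 without DSS 4.

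**Figure D3:**
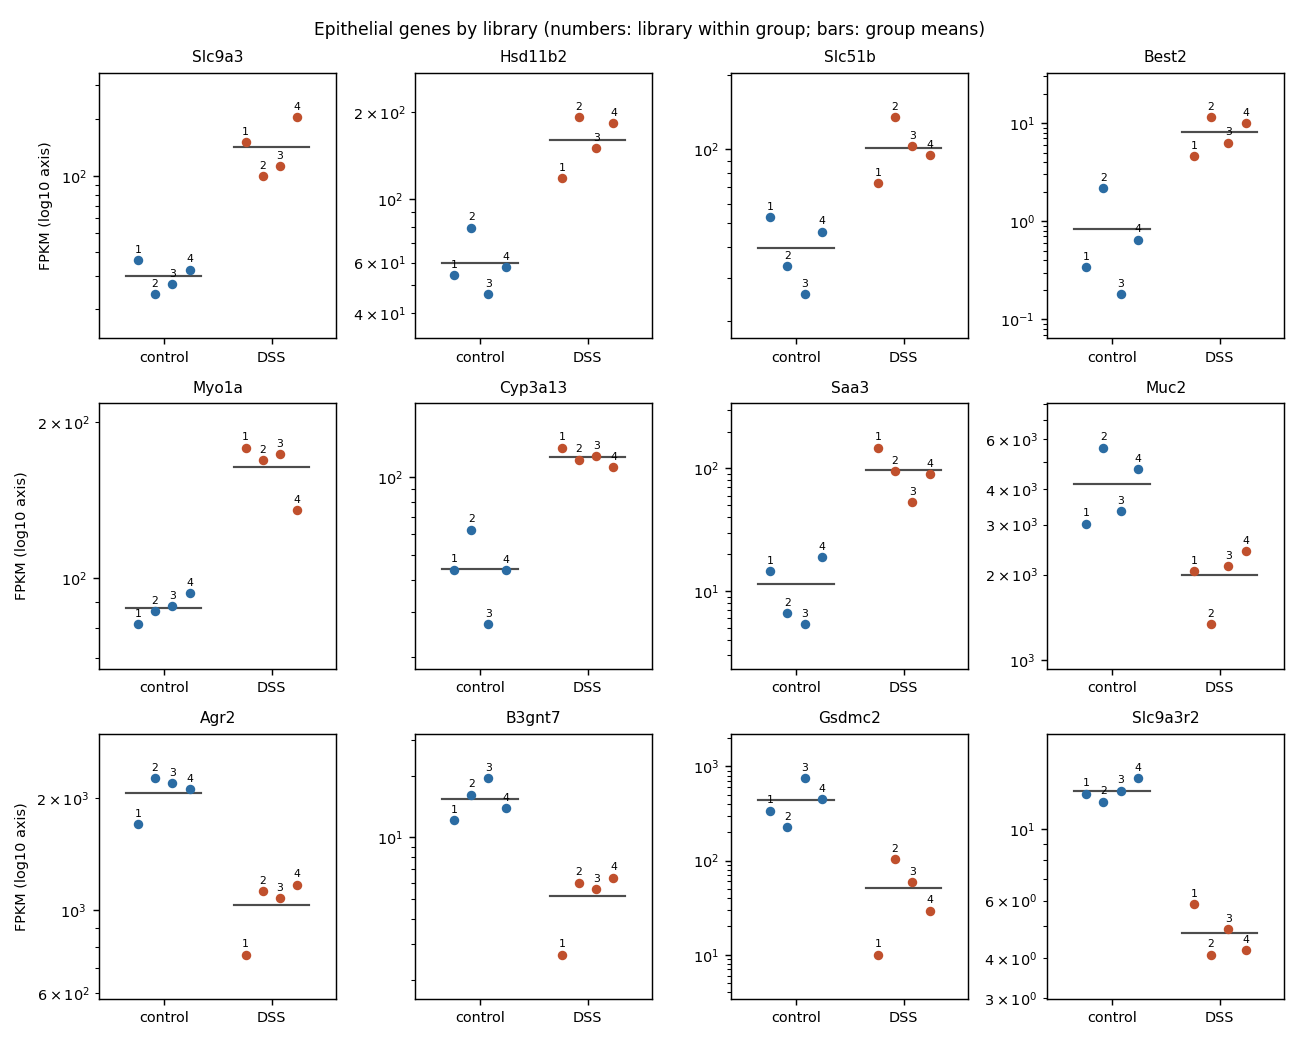
FPKM of 12 genes of epithelial transport, mucus and defence in each of the 8 libraries on a log10 axis, 1 panel per gene, 1 point per library, with group means as bars. Slc9a3, Hsd11b2, Slc51b, Best2, Myo1a, Cyp3a13 and Saa3 have all 4 DSS points above the controls, and Muc2, Agr2, B3gnt7, Gsdmc2 and Slc9a3r2 have all 4 below.

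Host defence genes of the epithelium were split between families. Of 17 gasdermin and inflammasome genes 3 fell and 2 rose. Gasdermins form membrane pores when cleaved, and the 3 that fell belong to the Gsdmc cluster. Gsdmc2 stood at 339, 227, 756 and 449 FPKM in control 1 to 4 and 10.1, 104, 59.5 and 29.5 in DSS 1 to 4 (log2 fold change -3.40 ± 0.59, adjusted p = 0.00538), and Gsdmc3 and Gsdmc4 moved with it (-3.17 and -4.49). Gsdmd, cleaved by inflammatory caspases, rose instead, from 62.9 ± 2.95 FPKM in the controls to 87.6 ± 5.39 with DSS (log2 fold change 0.47 ± 0.08, adjusted p = 0.00578). Naip5, a sensor of bacterial flagellin, stood at 14, 12, 14.5 and 14.8 FPKM in control 1 to 4 and 17.9, 16.7, 19.8 and 20.9 in DSS 1 to 4 (log2 fold change 0.42 ± 0.10, adjusted p = 0.0241). Neither was called with epithelial scaling, and Naip5 was not called without control 2, DSS 3 or DSS 4 either (adjusted p up to 0.072). The Gsdmc genes are near-identical neighbours, so the split of fragments among them is uncertain. Of 22 antimicrobial and oxidase genes 3 rose and 2 fell (Ang4 and Lyz2, given above). The 3 that rose are serum amyloid A genes, again close relatives. Saa1 stood at 460, 374, 417 and 979.6 FPKM in control 1 to 4 and 1927, 1821, 1206 and 2774 in DSS 1 to 4 (log2 fold change 1.84 ± 0.30, adjusted p = 0.00439). Saa3 stood at 14.4, 6.64, 5.34 and 18.9 FPKM in control 1 to 4 and 148, 94.6, 53 and 90.3 in DSS 1 to 4 (log2 fold change 3.05 ± 0.53, adjusted p = 0.00528), and neither overlapped. Reg3b, a bactericidal lectin, stood at 839, 1405, 165 and 3174 FPKM in control 1 to 4 and 4772, 416, 6224 and 3503 in DSS 1 to 4 (log2 fold change 1.53 ± 1.00, adjusted p = 0.359), with DSS 2 below 3 of the controls and control 4 near DSS 4.

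In the stem, tuft and enteroendocrine lists every called gene was lower. Of 20 crypt base and Wnt target genes 5 fell. Tnfrsf19, a stem cell receptor, stood at 1.82, 2.35, 1.75 and 2.11 FPKM in control 1 to 4 and 0.439, 0.842, 0.459 and 0.675 in DSS 1 to 4 (log2 fold change -0.91 ± 0.13, adjusted p = 0.00303). Tnfrsf19 met the minimum through the controls alone, so its groups could not overlap. Ephb3, which keeps cells in position along the crypt, stood at 5.92, 7.76, 9.14 and 7.92 FPKM in control 1 to 4 and 3.83, 4.46, 5.01 and 4.65 in DSS 1 to 4 (log2 fold change -0.65 ± 0.15, adjusted p = 0.0192), without overlap. Ephb3 lost its call without control 3 or control 4 (adjusted p up to 0.059). Axin2, a target of Wnt signalling, was not called (adjusted p = 0.209). Of 15 tuft cell genes all 15 had a negative log2 fold change, whereas 4977 of all 12241 genes had a positive one. Of the 15, 4 fell, against 10.1% of all genes. Dclk1, a kinase that marks tuft cells, was among the 4, at 5.36, 3.54, 6.14 and 6.33 FPKM in control 1 to 4 and 2.02, 2.11, 0.771 and 1.58 in DSS 1 to 4 (log2 fold change -1.28 ± 0.25, adjusted p = 0.00823). The channel gene Trpm5 was not called (adjusted p = 0.365). Of 19 enteroendocrine genes 6 fell. Somatostatin (Sst) stood at 87.7, 44.2, 85.7 and 82.6 FPKM in control 1 to 4 and 21.7, 42.1, 11.1 and 25.8 in DSS 1 to 4 (log2 fold change -1.63 ± 0.39, adjusted p = 0.0202). Its call ended without control 3, control 4 or DSS 3 (highest adjusted p 0.058). Chga, the granule protein chromogranin A, was at 83.4, 106, 27.9 and 58.4 FPKM in control 1 to 4 and 45.4, 52.7, 36.1 and 79 in DSS 1 to 4 (adjusted p = 0.685). Several members of this list are also expressed by enteric neurons. Among 60 cell cycle and DNA replication genes 1 was called: Cdkn1a, the inhibitor p21, rose from 75.2 ± 7.92 FPKM in the controls to 113 ± 20.8 with DSS (log2 fold change 0.56 ± 0.15, adjusted p = 0.0291), and lost its call without any 1 of 5 libraries (adjusted p up to 0.088). Mki67 stood at 13.6, 10.3, 19.6 and 12.5 FPKM in control 1 to 4 and 18.9, 11.4, 10.1 and 4.86 in DSS 1 to 4 (adjusted p = 0.466). Of 20 fetal-like repair genes 1 fell, Anxa5 (log2 fold change -0.73 ± 0.18, adjusted p = 0.023), and leaving out 1 of control 3, control 4, DSS 3 and DSS 4 ended the call (adjusted p up to 0.068). Ly6a, which encodes the surface marker Sca-1, was not called (adjusted p = 0.383). Of 24 tight junction and desmosome genes 1 rose (Pkp3) and 1 fell (Evpl), with adjusted p of 0.0487 and 0.0308, and both calls were lost without most single libraries (adjusted p up to 0.114 and 0.094). The Pkp3 change of 0.42 ± 0.13 was not called with epithelial scaling.

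Growth factor lists bear on the subject of the series. Of 27 FGF ligands, receptors and feedback genes 7 fell and none rose. Fgf1 itself stood at 8.5, 8.74, 7.17 and 9.52 FPKM in control 1 to 4 and 6.63, 2.95, 5.26 and 4.97 in DSS 1 to 4 (log2 fold change -0.71 ± 0.20, adjusted p = 0.0387), without overlap. The call of Fgf1 ended without any 1 of 7 libraries (adjusted p up to 0.104), and it was not called in a fit of control and DSS libraries alone. Fgf7, the stromal ligand of epithelial Fgfr2, fell from 1.6 ± 0.566 FPKM in the controls to 0.245 ± 0.141 with DSS (log2 fold change -1.04 ± 0.22, adjusted p = 0.0107). Fgf7 met the minimum through the controls alone, so its groups had to differ. Fgfr1, mainly a stromal receptor, fell from 10 ± 5.05 FPKM in the controls to 2.25 ± 1.57 with DSS (log2 fold change -1.80 ± 0.41, adjusted p = 0.016), with an adjusted p of 0.054 without DSS 3. Spry4, a feedback inhibitor of receptor tyrosine kinases, stood at 3.24, 2.51, 2.63 and 2.4 FPKM in control 1 to 4 and 1.06, 0.836, 0.537 and 0.298 in DSS 1 to 4 (log2 fold change -1.15 ± 0.18, adjusted p = 0.00345). Fgfr2 was at 9.79, 18.8, 13 and 15 FPKM in control 1 to 4 and 10.1, 17.8, 8.38 and 6.28 in DSS 1 to 4 (adjusted p = 0.35), so the groups overlapped. Of 24 Notch and secretory fate genes 2 fell (Creb3l1 and Xbp1, given above), near the 10.1% lower among all genes. Hes1, a Notch target, was at 41.3, 27.4, 34.5 and 33.3 FPKM in control 1 to 4 and 36.7, 40.7, 50.9 and 48.6 in DSS 1 to 4 (adjusted p = 0.15).

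Several genes that glucocorticoids control were higher. Glucocorticoids bind a nuclear receptor that raises the transcription of Fkbp5, a co-chaperone that dampens the receptor in turn. Fkbp5 (chr17:28399094-28517527, minus strand, GRCm38) stood at 68.3, 62.7, 38.8 and 40.7 FPKM in control 1 to 4 and 204, 144, 155 and 170.1 in DSS 1 to 4 (log2 fold change 1.69 ± 0.24, adjusted p = 0.00303). Every DSS library was at least 144 FPKM and every control at most 68.3, and the call held without any 1 library and without DSS 3 and DSS 4 together. It was lost with the smooth muscle covariate, where no glucocorticoid and stress hormone gene was called. Of 19 tested glucocorticoid and stress hormone genes 6 rose and 1 fell, with a median of 0.54 (0.63 and 0.38 under the other scalings). Hsd11b1, which regenerates active glucocorticoid and is made by stromal cells, was the member that fell, at 4.19, 3.45, 3.4 and 2.24 FPKM in control 1 to 4 and 1.17, 0.404, 0.0901 and 0.0908 in DSS 1 to 4 (log2 fold change -1.63 ± 0.23, adjusted p = 0.00303). Thus the regenerating and the inactivating enzyme (Hsd11b2) moved in opposite directions. Tsc22d3 (GILZ), another common target of the receptor, stood at 17.7, 27.5, 35.4 and 24.6 FPKM in control 1 to 4 and 31.2, 16.7, 22.4 and 13.9 in DSS 1 to 4 (adjusted p = 0.483), so its groups overlapped, and Per1 had an adjusted p of 0.156.

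The metallothioneins Mt1 and Mt2, zinc-binding proteins that metals and glucocorticoids both induce, were part of the same list. Mt2 stood at 74.8, 81.5, 48.5 and 37.2 FPKM in control 1 to 4 and 651, 108, 661 and 400 in DSS 1 to 4 (log2 fold change 2.66 ± 0.59, adjusted p = 0.0147). Mt1 stood at 157, 179.5, 118 and 126 FPKM in control 1 to 4 and 1027, 228, 894 and 541 in DSS 1 to 4 (log2 fold change 2.01 ± 0.45, adjusted p = 0.0159). All 4 DSS values lay above the controls, with DSS 2 closest to them, and without DSS 3 the adjusted p was 0.051 for Mt2 and 0.054 for Mt1. Of 31 genes of metallothioneins, zinc and iron these 2 rose and Mt3 fell (log2 fold change -0.89 ± 0.27, adjusted p = 0.0495), a call lost without any 1 of 7 libraries (adjusted p up to 0.124). Slc30a1, a zinc exporter that the same metal-responsive factor controls, was at 16.1, 18.1, 8.99 and 11.2 FPKM in control 1 to 4 and 13.2, 19, 15 and 21.3 in DSS 1 to 4 (adjusted p = 0.343). The core metal response element, TGCACNC or TGCGCNC on either strand, occurred in 23.8% of genes of the promoter table and in 10 of 22 list members found there. The stretches before Mt1 (chr8:94179029-94179088) and Mt2 (chr8:94172478-94172582, both plus strand) are shown as those of the 2 genes that rose, with the matches in capitals. The stretch of Mt2 holds 2 of the 3 matches found before that gene.
Mt1: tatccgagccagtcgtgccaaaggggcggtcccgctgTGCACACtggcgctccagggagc
Mt2: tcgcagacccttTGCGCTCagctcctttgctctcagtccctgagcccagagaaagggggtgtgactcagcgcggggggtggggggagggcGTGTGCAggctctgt

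Clock genes changed in both directions. In this loop BMAL1 (encoded by Arntl) and CLOCK drive Per, Cry, Nr1d and Dbp genes through E boxes, and the Nr1d proteins repress Arntl. Of 18 tested clock genes 4 rose and 1 fell. Nr1d2 stood at 3.7, 5.06, 3.31 and 5.41 FPKM in control 1 to 4 and 16.6, 8.81, 12.4 and 10.3 in DSS 1 to 4 (log2 fold change 1.26 ± 0.19, adjusted p = 0.00345). Nr1d1 was at 4.17, 4.61, 4.08 and 5.38 FPKM in control 1 to 4 and 11.6, 18.2, 6.71 and 10.8 in DSS 1 to 4 (log2 fold change 1.14 ± 0.24, adjusted p = 0.0118). Arntl stood at 18.9, 22.6, 18.4 and 16.7 FPKM in control 1 to 4 and 7.09, 14.6, 6.22 and 12.3 in DSS 1 to 4 (log2 fold change -0.93 ± 0.22, adjusted p = 0.0194). The groups did not overlap for any of the 3. Dbp, a clock output factor, stood at 2.49, 3.33, 2.3 and 2 FPKM in control 1 to 4 and 6.16, 3.79, 12.4 and 4.09 in DSS 1 to 4 (log2 fold change 0.99 ± 0.30, adjusted p = 0.0474). Per3 stood at 1.47, 1.85, 1.5 and 1.44 FPKM in control 1 to 4 and 4.23, 2.4, 5.21 and 2.49 in DSS 1 to 4 (log2 fold change 0.79 ± 0.24, adjusted p = 0.0479). DSS 1 and DSS 3 were the highest for Dbp and Per3 and the lowest for Arntl. Nr1d1 and Nr1d2 kept their calls without any 1 library, Arntl lost its call without DSS 3 (adjusted p = 0.055), and Dbp and Per3 lost theirs without any 1 of 7 libraries (adjusted p up to 0.119 and 0.138). Per1 and Per2 were not called, with adjusted p of 0.156 and 0.605. The time of day at which the tissue was taken is not given in the labels. The D box (TTATGTAA or TTACGTAA, either strand), which Dbp binds, occurred in 1.1% of genes of the promoter table and in 1 of 13 clock genes found there, Per3. The E box CACGTG occurred in 6.86% of genes and in 3 of the 13, none of them called. The 2 D boxes of Per3 (chr4:151044805-151044880, minus strand) are printed as the motif found in a called clock gene.
Per3: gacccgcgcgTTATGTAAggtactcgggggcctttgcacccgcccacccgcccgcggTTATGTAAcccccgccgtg

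Cytosolic chaperone genes were lower in part, and 1 of them differed in transcript form. These proteins, many of them induced by heat shock factor 1, hold or refold other proteins. Of 20 tested genes 9 fell and none rose, with a median of -0.43. Hsp90aa1, the inducible form of HSP90, stood at 65.2, 88.2, 80.8 and 84.3 FPKM in control 1 to 4 and 38.5, 52.7, 26.4 and 30.4 in DSS 1 to 4 (log2 fold change -1.12 ± 0.22, adjusted p = 0.00907). Hspa4l, a nucleotide exchange factor, stood at 8.75, 11.2, 10.8 and 9.42 FPKM in control 1 to 4 and 5.44, 4.88, 3.28 and 4.36 in DSS 1 to 4 (log2 fold change -1.02 ± 0.17, adjusted p = 0.00438), both without overlap. The constitutive partners Hsp90ab1 and Hspa8 were not called (adjusted p of 0.368 and 0.772). Cryab and Hspb1, small heat shock proteins that muscle also expresses, fell (-1.56 ± 0.46 and -1.73 ± 0.50) and lost their calls without most single libraries (adjusted p up to 0.119 and 0.113). No member was called without DSS 3 and DSS 4 together, where the list median was -0.37.

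Hsph1 encodes HSP105, an exchange factor for HSP70. It is known in 2 forms, a constitutive alpha form and a shorter beta form, made by skipping 1 coding exon, that is produced on heat shock. The gene (chr5:149614287-149636376, minus strand) stood at 40.1, 71.9, 48.7 and 35.7 FPKM in control 1 to 4 and 8.39, 22.4, 10.7 and 16.2 in DSS 1 to 4 (log2 fold change -1.74 ± 0.29, adjusted p = 0.00463), without overlap. Its 2 main listed transcripts ran in opposite directions; they were singled out after their values had been seen. The exon-skipping transcript Hsph1-201 was listed at 36.8, 64.8, 44.8 and 31.9 FPKM in control 1 to 4 and 0, 0, 0 and 0 in DSS 1 to 4. The transcript that holds the exon, Hsph1-211, was listed at 2.13, 3.43, 1.59 and 2.1 FPKM in control 1 to 4 and 7.47, 22, 10.3 and 16 in DSS 1 to 4. As shares of the gene's FPKM, Hsph1-201 made up 91.7, 90, 92 and 89.5% in control 1 to 4 and 0, 0, 0 and 0% in DSS 1 to 4, and Hsph1-211 5.31, 4.78, 3.27 and 5.9% in control 1 to 4 and 89, 98.2, 96.9 and 98.9% in DSS 1 to 4. In every control the skipping form was the main one, and in every DSS library it was listed at 0. A listed 0 can also be a failed assembly, and the 2 transcripts differ in the lengths of their first and last exons as well, so the form assigned may turn on more than the exon. The exon is exon 12 of 18 in Hsph1-211, coding, 132 bases (44 codons with no base left over), at chr5:149623465-149623596 on the minus strand of GRCm38. It is printed, in capitals with 15 bases of its neighbours on either side, as the stretch that separates the forms, from the GENCODE vM21 transcript.
Hsph1: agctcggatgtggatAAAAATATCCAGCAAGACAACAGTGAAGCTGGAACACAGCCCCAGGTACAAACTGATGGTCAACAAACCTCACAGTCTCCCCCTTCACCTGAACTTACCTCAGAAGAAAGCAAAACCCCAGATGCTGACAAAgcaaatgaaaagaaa

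The test of the log ratio of Hsph1-211 to the other kept transcripts of the gene gave 7.56 ± 1.46, adjusted p = 0.24. The FGF1 libraries, which share the estimate of the spread, were mixed: Hsph1-201 was at 0, 19.4, 28.5 and 12.8 FPKM and Hsph1-211 at 19.2, 1.26, 0.453 and 2.12 FPKM in FGF1 1 to 4. With control and DSS libraries alone in the fit it was 7.56 ± 0.38, adjusted p = 0.000211.

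Of 21282 tested transcripts 567 were called (2.66%), 108 higher (0.507%) and 459 lower (2.16%). Most followed their gene: 77 of the 108 higher transcripts belonged to genes called higher, 417 of the 459 lower ones to genes called lower, and none to a gene called in the opposite direction. A change of a transcript's place within its gene was called for 3 of 14517 transcripts (0.0207%). Srp19-202, a transcript of a subunit of the signal recognition particle, was listed at 6.57, 6.63, 14.2 and 8.48 FPKM in control 1 to 4 and 0, 0, 0 and 0 in DSS 1 to 4 (-3.78 ± 0.50, adjusted p = 0.0477). It lacks a coding exon of 72 bases that Srp19-201 holds. These transcripts differ in the lengths of their first and last exons as well, so the form assigned may turn on more than that exon. Srp19-201 was listed at 13.9, 11.6, 9.16 and 12.9 FPKM in control 1 to 4 and 18.8, 8.21, 18 and 17.3 in DSS 1 to 4. The other 2 were a pair from Rexo4, a predicted exonuclease gene: Rexo4-201 was listed at 7.57, 3.83, 3.44 and 3.99 FPKM in control 1 to 4 and 0.00224, 0.0917, 0.492 and 0.0642 in DSS 1 to 4 (-2.67 ± 0.35, adjusted p = 0.0477). Its partner Rexo4-202 was listed at 5.22, 7.33, 6.29 and 5.09 FPKM in control 1 to 4 and 12.2, 10.9, 11.6 and 10.4 in DSS 1 to 4 (1.83 ± 0.24, adjusted p = 0.0477). The groups did not overlap for the 3 called transcripts. The Rexo4 transcripts are annotated with an exon 8 of 1034 and 1031 bases and no other difference, so fragments can hardly be told apart between them. Leaving out single libraries ended the calls of Srp19-202 and Rexo4-202 in 8 of 8 cases and that of Rexo4-201 in 7 (adjusted p up to 0.179).

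**Figure D4:**
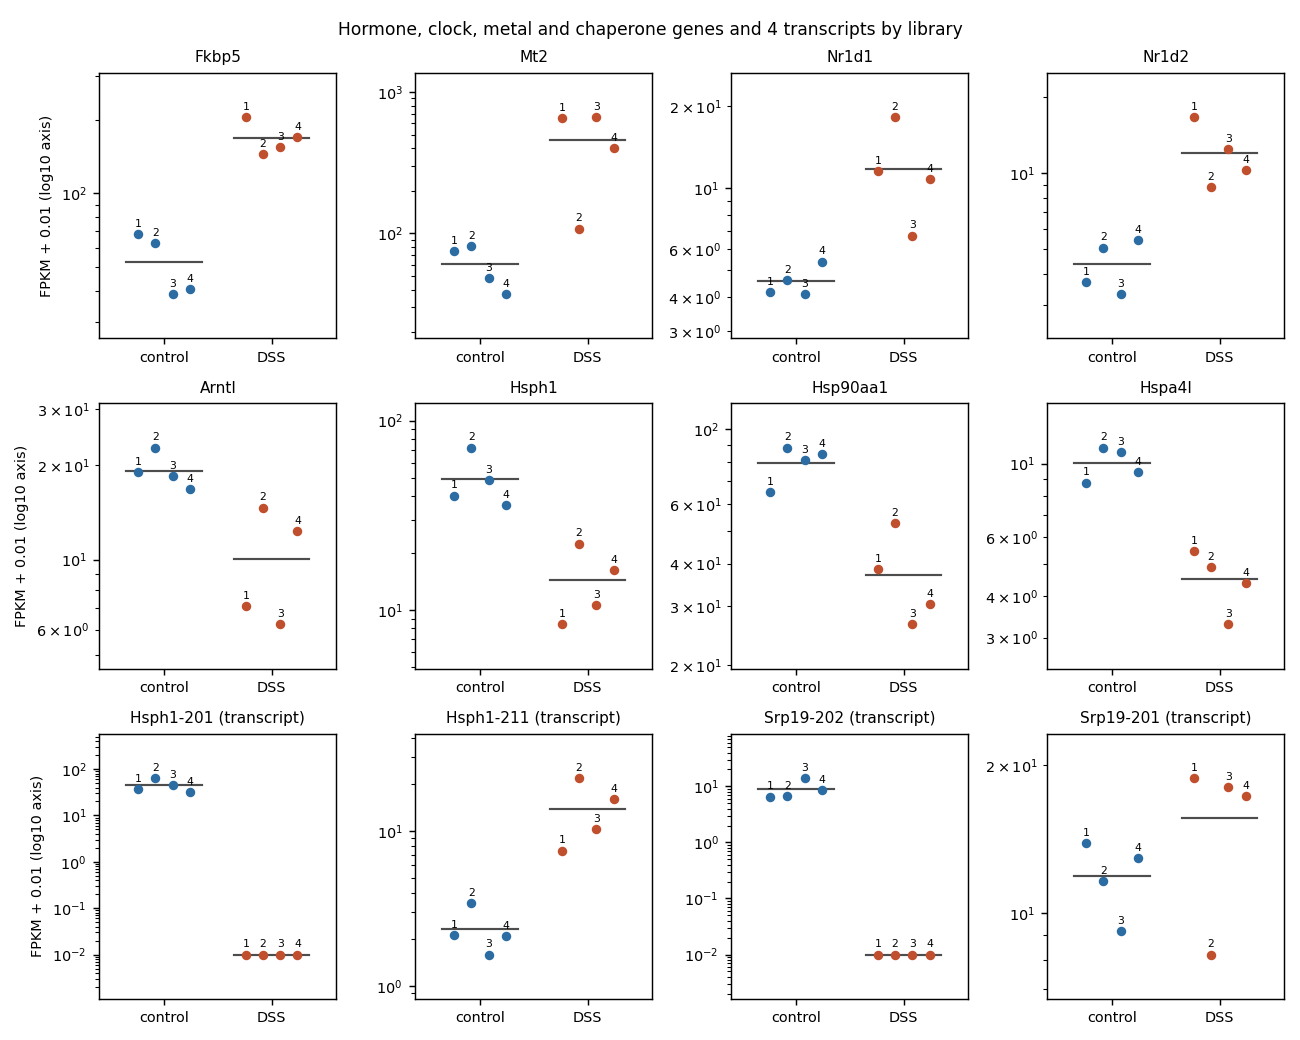
FPKM of 8 hormone, clock, metal and chaperone genes (upper 2 rows) and of 4 transcripts (lower row) in each of the 8 libraries, on a log10 axis of FPKM + 0.01, 1 point per library, with group means as bars. Fkbp5, Mt2, Nr1d1 and Nr1d2 lie higher in DSS, Arntl, Hsph1, Hsp90aa1 and Hspa4l lower, and Hsph1-201 and Srp19-202 are at 0 in all 4 DSS libraries.

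Abundant housekeeping lists shifted by small amounts in 1 direction. Among all 12241 genes 4977 had a positive log2 fold change and 2.28% were called higher. Of 71 cytosolic ribosomal protein genes 69 had a positive log2 fold change, with a median of 0.40, and 7 rose. Of 59 mitochondrial respiration genes 56 were positive, with a median of 0.21, and 5 rose. None of these 12 was called with epithelial scaling, where the medians were 0.22 and 0.03. Rps13 stood at 249, 204, 226 and 281 FPKM in control 1 to 4 and 368, 287, 471 and 324 in DSS 1 to 4 (log2 fold change 0.58 ± 0.15, adjusted p = 0.0303). Rpl39 stood at 249, 286, 339.5 and 324 FPKM in control 1 to 4 and 420.1, 348, 605 and 477 in DSS 1 to 4 (log2 fold change 0.61 ± 0.16, adjusted p = 0.0317), with DSS 3 and DSS 1 the highest. Ndufb8, a subunit of complex I, stood at 134, 122, 128 and 123 FPKM in control 1 to 4 and 160, 159.5, 207 and 188 in DSS 1 to 4 (log2 fold change 0.48 ± 0.11, adjusted p = 0.014), and its call held without any 1 library. With only transcripts that had a start event in the library summed, its log2 fold change was -1.43 ± 1.32, adjusted p = 0.571. The calls of Rps13 and Rpl39 were lost without any 1 of 3 and of 5 libraries (adjusted p up to 0.077 and 0.081). Ribosomal protein genes have many processed copies, so their fragments can be assigned uncertainly.

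The counts in this paragraph are to be read against 2.28% higher and 10.1% lower among all genes. Of 42 splicing factor genes 1 rose and 3 fell. Srsf5, a serine- and arginine-rich factor, stood at 125, 125, 149 and 136 FPKM in control 1 to 4 and 228, 161, 188 and 197 in DSS 1 to 4 (log2 fold change 0.52 ± 0.11, adjusted p = 0.012) and was not called with epithelial scaling. Qk, an RNA-binding protein that regulates splicing, stood at 3.12, 3.29, 5.3 and 4.39 FPKM in control 1 to 4 and 1.43, 0.854, 0.488 and 0.614 in DSS 1 to 4 (log2 fold change -1.45 ± 0.20, adjusted p = 0.00296). It was called under every alternative that tested it, and was too low to be tested with the minimum of 5 FPKM. Among 30 glycolysis and hypoxia genes 1 rose, Ankrd37 (3.65, 2.74, 4.36 and 5.71 FPKM in control 1 to 4 and 13.8, 8.49, 11.9 and 26.6 in DSS 1 to 4; log2 fold change 1.58 ± 0.37, adjusted p = 0.019), and 2 fell. Of 24 targets of the aryl hydrocarbon receptor and NRF2 2 rose and 1 fell. Gsr, glutathione reductase, was one of the former (0.43 ± 0.12, adjusted p = 0.0335), lost its call without any 1 of 7 libraries (adjusted p up to 0.083) and was not called with epithelial scaling. Of 19 immediate early genes, which respond within minutes to handling or injury, 1 fell (Zfp36l1, log2 fold change -0.73 ± 0.20, adjusted p = 0.0366), with overlap between the groups and a call lost without any 1 of 6 libraries (adjusted p up to 0.095). Fos stood at 48.7, 45.8, 49.3 and 41.1 FPKM in control 1 to 4 and 41.2, 121, 38.4 and 25.9 in DSS 1 to 4 (adjusted p = 0.967), with DSS 2 alone high. Of 15 mesothelium and adipocyte genes 1 fell: Fabp4, the lipid binder of fat cells, stood at 31.1, 159, 50.1 and 57.1 FPKM in control 1 to 4 and 34.8, 14.5, 7.97 and 3.65 in DSS 1 to 4 (log2 fold change -2.34 ± 0.71, adjusted p = 0.0499), with control 2 highest, and lost its call without any 1 of 6 libraries (adjusted p up to 0.130). In that list 2 of the 15 genes had a positive log2 fold change. The list median was -1.05, and -0.39 without DSS 3 and DSS 4 together.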

How the data were processed

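RNA was measured by poly(A) sequencing of mouse colon, per the labels' protocols, which name oligo(dT) beads. The submitters' processing notes name cutadapt 1.9, HISAT2 2.0.4, StringTie 1.3.4d, edgeR and the GRCm38 build, without their roles. The values deposited by the authors are FPKM per transcript, repeated over rows of splicing events; read depth is not given in the sources used here. Each transcript was counted once per gene with its largest listed value. All 12 libraries entered 1 limma model (limma 3.58.1, R 4.3.3, trend estimated) on log2(FPKM + 1), with the contrast DSS minus control and Benjamini-Hochberg adjustment over all tested genes or transcripts. A fold change on log2(FPKM + 1) understates that of low genes.

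A transcript's place in its gene was to be tested with limma's diffSplice. On simulated data that test called 52 of 14233 unchanged transcripts and 85 of 100 shifted ones. It was replaced by limma on the log2 ratio of the transcript to the other kept transcripts of the gene, each plus 1, which called 10 and 79. Other transcripts of the shifted genes were not counted, and noise was drawn independently for each transcript. Whether the replacement holds its error rate was therefore not shown. Alternatives covered the pseudocount, the minimum, 2 scalings, the libraries fitted, a replicate block, a smooth muscle covariate, transcript choice, and leaving out libraries.

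Genes named are those with the 12 largest called changes in either direction among genes with a group mean of at least 5 FPKM and no overlap, and, from each of 55 lists, among the first 3 tested genes and up to 5 called ones with the largest changes; a few others were chosen after their values were seen, and some that the rule names are not reported here. Members and lists were chosen with earlier results of these data known. DSS library titles carry a code of their own, so their group comes from the treatment label. Replicate numbers did not pair the samples (correlations of deviations -0.21, -0.09, -0.08 and -0.08 for number 1 to 4). Gene positions and exons come from GENCODE vM21, and promoter windows from RefSeq (GRCm38.p6). Protein sequences were not used here.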

Additional observations from a re-analysis of the deposited data

Results flagged for a closer look

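In 17 of 364 groups of 4 libraries (the 2 groups of each of 182 named genes), 1 library stood far from the other 3 of its group by Dixon's test, and chance flags about 1 group in 20. In control 1 the highest values were those of Igha (2016 FPKM), Pigr (821), Hspa5 (228) and Pdia4 (62.2), and the lowest were those of Kit (11.2) and Prox1 (0.68). Control 3 stood apart as the lowest for Slc25a20 (59 FPKM) and Cyp2d26 (14) and as the highest for Fgf7 (2.44). Control 2 was lowest for Sst (44.2 FPKM) and highest for Per3 (1.85), and control 4 was lowest for C1s1 (13.7). Within the DSS group, DSS 1 was highest for C1qc (4.71 FPKM) and Bmp5 (1.54) and lowest for B3gnt7 (2.67). DSS 2 was highest for Jchain (15.8 FPKM) and DSS 4 for Slc51a (147).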

How the results depend on the processing

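The limma fit called 1513 genes, 279 higher and 1234 lower, and the settings given here moved at least 1 of these counts by more than 1.5 times. A minimum of 5 FPKM gave 632, 177 and 455, and left no member, hence no median, in the neutrophil and B cell follicle lists. Epithelial scaling gave 2401, 117 and 2284, and median-of-ratios scaling 534 higher. Only control and DSS libraries in the fit gave 171 higher. The smooth muscle covariate gave 31, 5 and 26, and leaving out DSS 3 and DSS 4 together 201, 40 and 161. Summing only transcripts with a start event gave 726, 143 and 583, and using only the dominant transcript 819, 149 and 670. Without single libraries the counts ranged from 702 to 1961, 114 to 414 and 588 to 1678; the total fell by more than 1.5 times without control 3 (806), control 4 (762), DSS 3 (702) or DSS 4 (845).

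Called transcripts (567) became 173 with no minimum, 278 with 5 FPKM, 929 with epithelial scaling, 303 with control and DSS libraries only, 9 with the covariate and 25 without DSS 3 and DSS 4 together, and ranged from 94 (without DSS 3) to 669 (without DSS 1) without single libraries. Transcripts with a changed place in their gene (3) became 0 with a pseudocount of 0.1, 5 with one of 5, 627 with no minimum, 0 with 5 FPKM, 5 with epithelial scaling, 22 with control and DSS libraries only, 0 with the covariate and 0 without DSS 3 and DSS 4 together, and ranged from 0 to 5 without single libraries. The diffSplice test, replaced as described above and kept as an added alternative, called 106. The replicate block, on numbers that did not pair the samples, gave 1003 genes called (173 higher), 39 transcripts and 0 changes of place. The cause of these shifts was not tested.

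Of the 134 called genes named, 85 kept their call without any 1 library. The sign of 37 log2 fold changes turned. With the smooth muscle covariate these were Grem1 (0.19), Hoxa9 (1.21), Insl5 (0.24), Mki67 (0.28), Per2 (0.24), Reg3b (-0.14), Scnn1a (0.25), Slc30a1 (-0.093), Trpm5 (0.060) and Tsc22d3 (0.28). With epithelial scaling they were Fos (-0.14), Slc26a3 (-0.13) and Vil1 (-0.044), and with median-of-ratios scaling Hspa8 (0.028) and Krt20 (0.042). With the dominant transcript they were Agrn (-0.26), Fos (-0.0072), Kit (0.052) and Sgk1 (-0.85), and with start-event transcripts Cirbp (-0.70), Hoxa9 (0.056) and Ndufb8 (-1.43). Without DSS 3 and DSS 4 together they were Krt20 (0.20) and Mki67 (0.11). Over the 8 omissions of 1 library, values of both signs ranged from -0.11 (without DSS 1) to 0.53 for Cd79a, -0.41 (without DSS 2) to 0.32 for Fos, -0.41 to 0.12 (without DSS 1) for Krt20, -0.49 (without DSS 2) to 0.31 for Slc26a3, -0.12 to 0.0070 (without DSS 4) for Hspa8, -0.39 (without DSS 1) to 0.92 for Lcn2 and -0.010 (without DSS 2) to 0.22 for Vil1. Among these genes only Agrn, Ndufb8 and Sgk1 were called with all libraries. Read depth is unknown, so the precision of low FPKM values could not be computed.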

Other observations

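The genes of this paragraph lie outside the lists and were chosen after their values were seen. Prodh, proline dehydrogenase, which breaks down proline, stood at 6.95, 6.65, 4.92 and 7.46 FPKM in control 1 to 4 and 16.9, 20.1, 21.2 and 23.2 in DSS 1 to 4 (log2 fold change 1.51 ± 0.18, adjusted p = 0.00226). Pde9a, a phosphodiesterase that degrades cyclic GMP, stood at 54.4, 46.6, 51.9 and 62.1 FPKM in control 1 to 4 and 156, 226, 110.4 and 124 in DSS 1 to 4 (log2 fold change 1.46 ± 0.20, adjusted p = 0.00296). The groups did not overlap for either gene, and both calls held without any 1 library.

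The RNA-binding proteins Rbm3 and Cirbp are known to rise in mild cold. Rbm3 stood at 65.3, 59.6, 69.5 and 64 FPKM in control 1 to 4 and 262, 90.9, 256 and 95.1 in DSS 1 to 4 (log2 fold change 1.25 ± 0.34, adjusted p = 0.032) and Cirbp at 19.2, 24.2, 35.4 and 28.9 FPKM in control 1 to 4 and 61.9, 31.5, 25.9 and 38.5 in DSS 1 to 4 (log2 fold change 0.49 ± 0.27, adjusted p = 0.267). The call of Rbm3 was lost without any 1 of 6 libraries (adjusted p up to 0.095). DSS 1 and DSS 3 were the highest libraries for Rbm3, as they were for S100a9, Ly6g, the globins, Mt1, Mt2, Per3 and Dbp. What sets these libraries apart from DSS 2 and DSS 4 was not tested.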
